A study of Rattus norvegicus with 64 samples.

Results

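The expression of 9 acute-phase genes was followed in the rat bladder wall after augmentation with a bladder acellular matrix (BAM), either alone or seeded with adipose tissue-derived stromal cells (ASCs). The genes were Lcn2, Hp, Cp, Orm1, A2m, Serpina3n, Lbp, Cd14 and Ptx3. They were chosen from the measured values, because Lcn2 and Hp were among the genes with the largest falls with ASCs at 7 days, so that all differences at 7 days are given for them as a description and without a test. The 9 genes were 9 of 15709 genes named on the array, and 12 of 30367 gene probes belonged to them.

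Male Wistar rats underwent removal of part of the bladder and augmentation with a graft, and the reconstructed wall was harvested after 7, 30, 90 or 180 days. All 64 rats whose arrays were used carried BAM. In 4 groups it had no cells, and in the other 4 it had been seeded with third-passage ASCs grown from the retroperitoneal fat of male Wistar rats aged 10 weeks, while the age of the operated rats, which were syngeneic, was not given in the sources used here. RNA of 8 rats of each of the 8 groups was measured on 1-color arrays, 1 rat per array, with no unoperated bladder among the arrays. The wall holds all cell types of the healing tissue, so that fewer cells of a type and less RNA per cell cannot be told apart.

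The acute-phase response is the change in secreted proteins that follows injury or infection. Interleukin-6 and its relatives act through the shared receptor chain Il6st and the factor Stat3, and interleukin-1 and TNF act through NF-kB and C/EBP factors. The liver makes most of these proteins for the blood, but epithelial cells, neutrophils, macrophages and fat cells make several of them on site. Lcn2, or lipocalin-2, binds iron-loaded bacterial siderophores, Hp (haptoglobin) binds free hemoglobin and Cp (ceruloplasmin) is a copper-carrying ferroxidase. Orm1 is an acid glycoprotein of plasma, A2m (alpha-2-macroglobulin) and Serpina3n inhibit proteases, Lbp hands bacterial lipopolysaccharide to Cd14, its coreceptor on myeloid cells, and Ptx3 (pentraxin 3) is a pattern-recognition protein made at the site of inflammation.

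The sequence before the gene start was read for the members that a RefSeq promoter table of build GRCr8 holds, which were 6 of 9 (not Hp, A2m or Lbp). The 250 bases before the start were searched on both strands for TTCNNNGAA, the spaced motif bound by Stat3, for TTNNGNAAT, a motif of C/EBP factors, and for the NF-kB consensus. The 4 sequences below hold the matches of 4 genes lower with ASCs at 7 days by more than 1.5-fold, with matched bases in capitals. They were chosen by these values, so that the matches are no support for the falls. The sequence of Cd14, which differed by -0.33, also held a match and is not shown.
Lcn2, chr3:36081781-36082030, minus strand: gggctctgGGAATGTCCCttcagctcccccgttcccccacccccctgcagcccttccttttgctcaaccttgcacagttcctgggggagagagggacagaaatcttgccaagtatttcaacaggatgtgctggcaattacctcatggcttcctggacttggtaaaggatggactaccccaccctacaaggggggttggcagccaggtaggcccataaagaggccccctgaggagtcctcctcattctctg
Orm1, chr5:81788259-81788508, plus strand: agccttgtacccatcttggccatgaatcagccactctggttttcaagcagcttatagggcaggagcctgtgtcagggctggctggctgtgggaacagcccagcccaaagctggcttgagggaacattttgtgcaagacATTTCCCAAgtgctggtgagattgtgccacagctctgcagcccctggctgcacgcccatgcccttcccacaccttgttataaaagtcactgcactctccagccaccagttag
Serpina3n, chr6:129088142-129088391, plus strand: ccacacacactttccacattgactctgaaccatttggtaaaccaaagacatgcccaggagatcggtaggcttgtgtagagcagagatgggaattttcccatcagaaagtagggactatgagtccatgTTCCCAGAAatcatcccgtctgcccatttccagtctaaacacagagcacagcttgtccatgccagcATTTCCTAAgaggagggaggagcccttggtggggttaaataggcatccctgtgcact
Ptx3, chr2:152797313-152797562, plus strand: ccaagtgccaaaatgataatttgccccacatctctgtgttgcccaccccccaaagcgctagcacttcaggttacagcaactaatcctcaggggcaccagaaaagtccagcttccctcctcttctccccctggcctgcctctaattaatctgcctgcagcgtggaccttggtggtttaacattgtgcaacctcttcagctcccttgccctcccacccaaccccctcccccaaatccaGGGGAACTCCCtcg

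The NF-kB consensus was matched 242 to 233 bases before the start of Lcn2, on the strand opposite to the gene, and 14 to 4 bases before the start of Ptx3, where matches on both strands overlap. The C/EBP motif was matched 112 to 104 bases before Orm1 and 57 to 49 bases before Serpina3n. The Stat3 motif, which reads the same on both strands, was matched 123 to 115 bases before Serpina3n. Cd14 held a C/EBP match from 78 to 70 bases before its start, and Cp held no match. Among all 33469 promoters of the same length, 6.33% held the NF-kB consensus, 10.9% the C/EBP motif and 7.67% the Stat3 motif. A match says only that these letters are present, and no binding was measured.

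Levels are log2 processed signals after subtraction of the array's 75th percentile, so that 0 is the level of the probe at that percentile. They compare 1 gene between groups and not genes with each other. By limma over all 64 arrays, a probe was called different between groups if its fold change exceeded 1.5 with an adjusted p under 0.01. Every group had its own slide, 8 in all, and the arrays of 7 and 30 days were scanned on another day than those of 90 and 180 days. Slide and group, and scan and the step from 30 to 90 days, therefore cannot be told apart in any comparison here. The share of gene spots well above background was 73.3 to 95.6% on the arrays of the first 2 days and 35.5 to 64.6% on those of the last 2. Replicate 7 of BAM only at 7 days had 86.1% of spots well above background, the lowest urothelium markers of its group (mean -2.74) and the highest hepatocyte markers (mean -3.13), and without it the 7-day difference was -4.18 for Lcn2 and -3.14 for Hp. The arrays of BAM only at 90 days, replicate 8 (35.5% of spots) and of ASCs at 90 days, replicate 3 (the lowest array of its group for Lcn2, Hp, Cp, A2m, Serpina3n, Lbp, Cd14 and Ptx3) stood apart. No member was saturated on any array.

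Lcn2 was the gene with the largest fall with ASCs at 7 days. In the 8 bladders with BAM only its level ran from -0.19 to 5.03 with a median of 2.39, and with ASCs from -4.80 to 1.41 with a median of -2.31. In all, 7 of the 8 arrays with ASCs were below the lowest array with BAM only, while replicate 3 with ASCs lay inside the range of BAM. The means were 2.32 ± 1.88 and -2.14 ± 2.10 (SD, n = 8), a difference of -4.46 on the log2 scale or 22.0-fold. The median of all probes differed by -0.17 in the same direction.

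Hp had the third largest fall among the named genes. Its level ran from -0.13 to 3.17 with a median of 1.28 in BAM only and from -3.25 to 0.52 with a median of -2.52 with ASCs. Again 7 of 8 arrays with ASCs were below the lowest array with BAM only. The means of 1.35 ± 1.05 and -1.87 ± 1.45 (SD, n = 8) differed by -3.22, or 9.31-fold. The gene between Lcn2 and Hp in the order of falls was RT1-T24-2, a class I histocompatibility gene, at -3.23, and the gene after Hp was Tas1r3 at -3.16.

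The same arrays were high for both genes. With BAM only at 7 days, replicate 2 was the highest array and replicate 8 the lowest for both, and with ASCs replicates 1, 2 and 3 were the highest 3 arrays for both, replicate 3 first. Within the 8 arrays of a group, Pearson's r of Lcn2 and Hp was 0.915 for BAM only and 0.859 for ASCs at 7 days and 0.936 and 0.900 at 30 days. It was 0.296 for BAM only and 0.913 for ASCs at 90 days, while at 180 days it was 0.569 and 0.495. The r of 0.913 includes replicate 3, which was far below the other arrays for Lcn2 (-5.79, nearest -3.39) and Hp (-5.86, nearest -3.10). That array was not well above background for either gene, and r without it was not computed. The arrays of each group share a slide, and the values are a description. At 90 and 180 days Hp was well above background on 4 to 6 arrays of each group, and Lcn2 on 5 to 8.

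**Figure D1:**
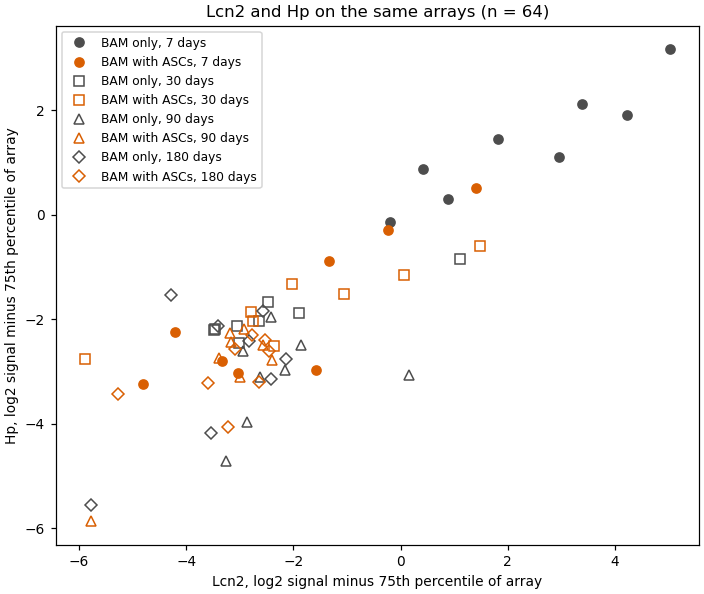
Level of Lcn2 (x axis) against Hp (y axis), both as log2 signal less the 75th percentile of each array, with 1 point per array, colors for the graft and shapes for the day (n = 64). The arrays of BAM only at 7 days fill the upper right, 7 of the 8 arrays with ASCs at 7 days lie lower for each gene, and all arrays of the later days lie below 0 for Hp.

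Among the recognition proteins, Ptx3 and Lbp were lower with ASCs at 7 days and Cd14 differed little. Ptx3 ran from -0.07 to 4.74 (median 0.96) in BAM only and from -1.25 to 1.96 (median -0.29) with ASCs, a mean difference of -1.49. Lbp ran from -0.08 to 2.21 (median 0.99) and from -0.84 to 1.04 (median -0.37), a difference of -1.36. For both genes 6 of 8 arrays with ASCs were below the lowest array with BAM only. Cd14 ran from 1.74 to 2.61 and from 1.39 to 2.24, with a difference of -0.33.

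Orm1 was dim. It was well above background on 4 of 8 arrays of BAM only and on 0 of 8 arrays with ASCs at 7 days, and no fold is given. Its measured means were -5.73 and -7.77. This difference of -2.05 became -0.71 with normexp background correction, -0.89 with quantile normalization and -0.95 from the series matrix. Orm1 was the only member, 1 of 9, whose arrays did not overlap between the grafts at 7 days. Of all probes 4.19% had every array with ASCs below every array with BAM only.

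The protease inhibitors and Cp stayed closer together at 7 days. Serpina3n ran from 0.21 to 3.19 in BAM only and from 0.13 to 0.98 with ASCs, a difference of -0.76, and the arrays above 2 were 3 of the BAM only group. A2m, with levels between 2.10 and 4.00 in BAM only and between 2.81 and 3.94 with ASCs, differed by 0.21, and Cp by -0.01. In total 8 of 9 members had a lower mean with ASCs, 6 of them by more than 1.5-fold, with a median difference of -1.36 beside -0.17 for all probes. The choice of members used these values.

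**Figure D2:**
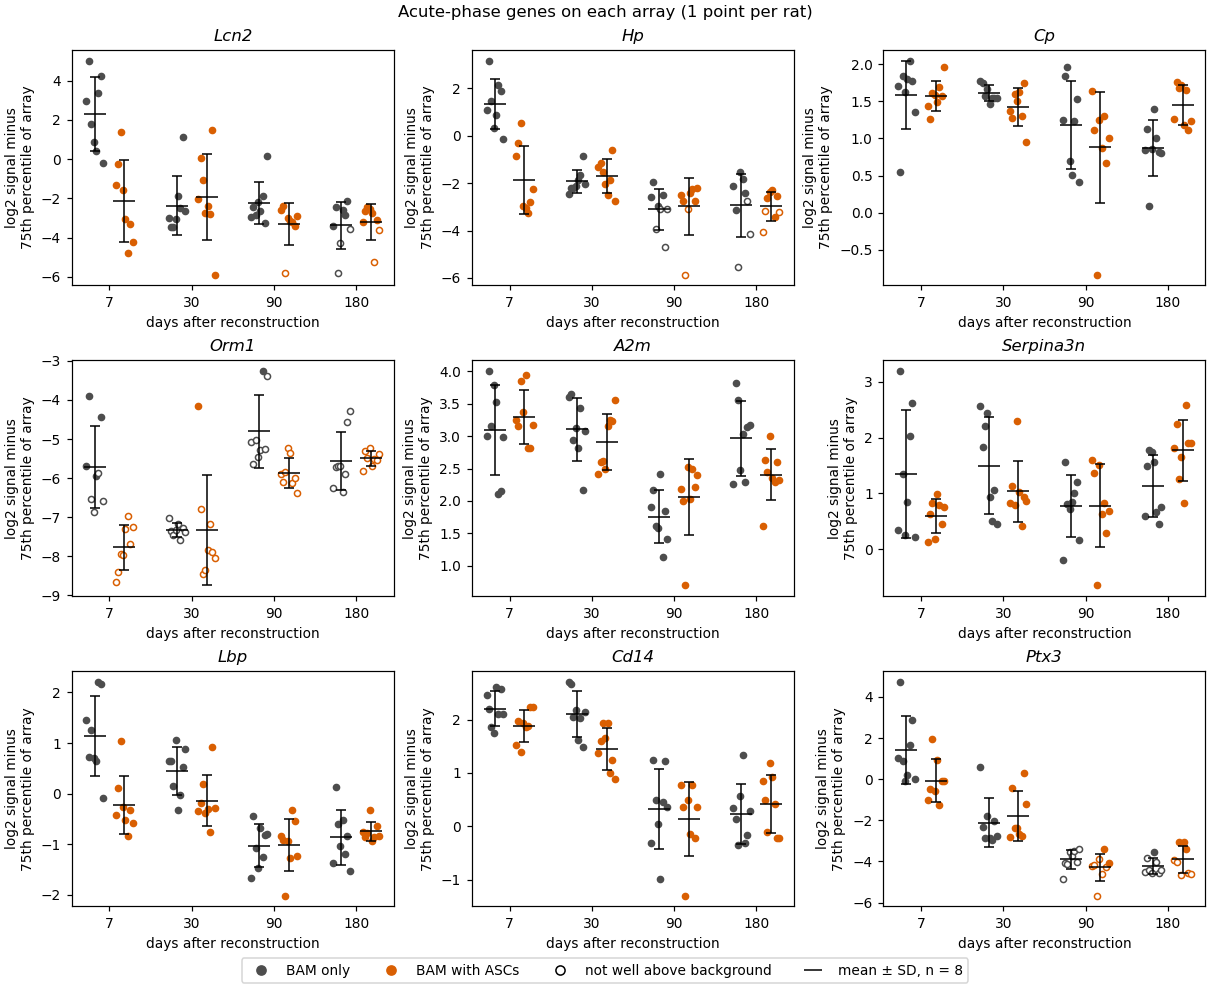
Level of each of the 9 genes on each array (log2 signal less the array percentile) by days after reconstruction, with 1 point per rat, open points not well above background and bars for the mean ± SD of 8 arrays. Lcn2 and Hp have their highest means in BAM only at 7 days, Cd14, Lbp and Ptx3 step down between 30 and 90 days in both grafts, and Orm1 is well above background on 6 of 64 arrays.

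At 30 days the means of Lcn2, Hp and Ptx3 in BAM only were lower than at 7 days. Lcn2 fell by 4.68 on the log2 scale between the means of 7 and 30 days in BAM only, Hp by 3.28 and Ptx3 by 3.53, while with ASCs Lcn2 differed by 0.22, Hp by 0.15 and Ptx3 by -1.72. For Hp and Orm1 in BAM only the arrays of 7 and 30 days did not overlap, and the share of all probes without such overlap was not counted. Orm1 differed by -1.6 and was well above background on 4 arrays at 7 days and 0 at 30 days. Lbp differed by -0.69 in BAM only, with overlap. For Lcn2 and Ptx3 1 array of 30 days (replicate 7 at 1.11 and replicate 1 at 0.61) lay inside the range of 7 days. Cd14, A2m, Cp and Serpina3n differed by at most 0.15 between these days in BAM only. These steps rest on the 7-day arrays that chose the genes and are given without a test.

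The grafts were then compared at days that the choice did not use. At 30 days Lcn2 ran from -3.47 to 1.11 (median -2.83) in BAM only and from -5.89 to 1.47 (median -2.20) with ASCs, so that the groups overlapped, and replicate 7 was the highest array in both. The difference was 0.44 with a 95% interval from -1.09 to 1.98 (adjusted p = 0.75, limma). Hp ran from -2.46 to -0.85 and from -2.76 to -0.60, with a difference of 0.21 and an interval from -0.79 to 1.22 (adjusted p = 0.82). None of the 9 members was called by limma at 30 days, where 1.66% of all probes were. By unadjusted p below 0.05 there were 2, Cd14 and Lbp, and by the 2-way analysis of variance 0. Cd14 was lower with ASCs by -0.66 (adjusted p = 0.098) and Lbp by -0.59 (adjusted p = 0.14). Of 11 macrophage markers 0 were called by limma at that day and 9 had an unadjusted p below 0.05, with a median difference of -0.78 beside 0.11 for all probes. Their mean level ran from 0.80 to 1.39 in BAM only and from 0.01 to 1.11 with ASCs, and their part in the values of Cd14 and Lbp was not tested. Neutrophil markers had a median difference of 0.80 over 11 genes at that day, with 3 at an unadjusted p below 0.05. Padi4 alone was called, higher with ASCs (1.69, adjusted p = 0.002, limma). S100a8 differed by 1.77 (adjusted p = 0.15) and S100a9 by 1.87 (adjusted p = 0.12), and neither was called.

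At 90 days Lcn2 ran from -3.26 to 0.16 (median -2.52) in BAM only and from -5.79 to -2.39 (median -3.09) with ASCs. The difference of -1.06 had an interval from -2.59 to 0.48 (adjusted p = 0.26). Hp ran from -4.71 to -1.95 and from -5.86 to -2.19, and its difference of 0.12 had an interval from -0.88 to 1.13 (adjusted p = 0.86). None of the 9 members was called by limma, beside 12.6% of all probes, 1 had an unadjusted p below 0.05 and the analysis of variance called 0. That member was Orm1 (-1.07, adjusted p = 0.031), which was well above background on 1 array of BAM only and on 0 arrays with ASCs. The median of all probes differed by -0.28 at this day.

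At 180 days Lcn2 ran from -5.78 to -2.13 (median -3.12) in BAM only and from -5.27 to -2.46 (median -2.92) with ASCs, with a difference of 0.17 and an interval from -1.36 to 1.71 (adjusted p = 1). Hp differed by -0.03 with an interval from -1.03 to 0.98 (adjusted p = 1). None of the 9 members was called by limma, beside 2.42% of all probes. By unadjusted p there were 2 and by the analysis of variance 0. These were Cp, higher with ASCs by 0.58 (adjusted p = 0.12), and A2m, at -0.56 (adjusted p = 0.26). The intervals for Lcn2 at 30 and 180 days still hold differences of more than 2-fold in either direction.

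**Figure D3:**
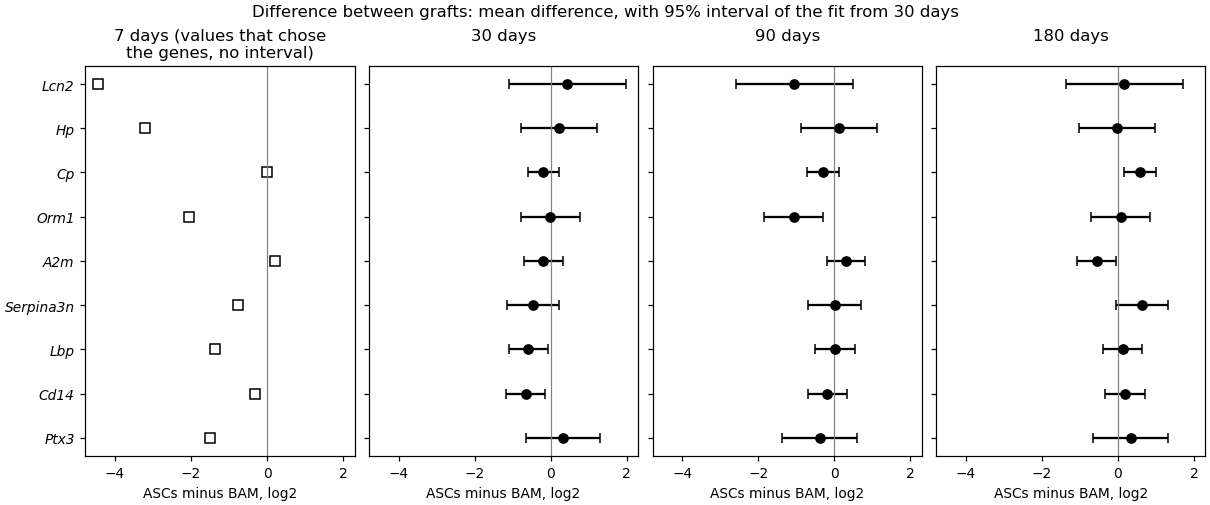
ASC-seeded grafts minus BAM only (x axis, difference of log2 signals) for the 9 genes at 7, 30, 90 and 180 days, as the difference of means at 7 days, which chose the genes, and with the 95% interval of the fit at the later days. At 7 days Lcn2 lies at -4.46 and Hp at -3.22, and at the later days all intervals of Lcn2 and Hp hold 0.

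Whether the difference between grafts changed among the later days was tested as a difference of differences. No member was called by limma or by the analysis of variance in the 3 tests. From 30 to 90 days 10.1% of all probes were called, and 0 members had an unadjusted p below 0.05. From 30 to 180 days 2.5% of all probes were called, and 3 members had an unadjusted p below 0.05. From 90 to 180 days 9.79% were called, and 3 members had an unadjusted p below 0.05. The lowest adjusted p of the 3 tests was 0.028, for Cp between 90 and 180 days (0.88 on the log2 scale). Such tests with 7 days were not made, since those arrays chose the genes.

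Between 30 and 90 days the myeloid and recognition genes stepped down in both grafts. Cd14 ran from 1.5 to 2.71 (median 2.10) at 30 days and from -0.99 to 1.25 (median 0.41) at 90 days in BAM only. With ASCs it ran from 0.88 to 1.94 and from -1.30 to 0.77. The arrays of the 2 days did not overlap in either graft, and Cd14 fell by 1.80 (adjusted p = 2.9e-08, limma) and by 1.32 (adjusted p = 3.2e-05). The share of all probes without overlap between these 2 days was not counted. The lack of overlap here, and for Lbp and Ptx3 below, is therefore a description only.

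Lbp in BAM only ran from -0.32 to 1.06 at 30 days and from -1.67 to -0.44 at 90 days, without overlap, and fell by 1.47 (adjusted p = 2.2e-06). With ASCs it ran from -0.76 to 0.92 and from -2.02 to -0.32, with overlap, and fell by 0.86 (adjusted p = 0.0049). That call was lost with only these groups in the fit (adjusted p = 0.010) and without the array of replicate 7 at 30 days (adjusted p = 0.021) or replicate 3 at 90 days (adjusted p = 0.020), among others.

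Ptx3 was well above background on all arrays at 30 days and on 0 of 8 arrays of BAM only and 2 of 8 with ASCs at 90 days. It ran from -2.94 to 0.61 in BAM only at 30 days and from -4.84 to -3.40 at 90 days, without overlap, and on this scale was at least 3.12-fold lower at 90 days (adjusted p = 0.0014). With ASCs it ran from -2.83 to 0.31 and from -5.67 to -3.42, also without overlap. The fitted difference was -2.51 (adjusted p = 3.0e-05), and -1.36 (adjusted p = 0.0094) with normexp, with the level at 90 days measured on 2 arrays. The second, dimmer probe of Ptx3 differed by 1.17 (adjusted p = 0.033) and by -0.81 (adjusted p = 0.17) in these comparisons and was well above background on 0 arrays at 90 days. In BAM only the call was lost with normexp background correction (-1.17, adjusted p = 0.025) and with the mean of both probes (-0.30, adjusted p = 0.57).

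A2m in BAM only ran from 2.17 to 3.65 at 30 days and from 1.13 to 2.41 at 90 days and fell by 1.34 (adjusted p = 6.6e-06). With ASCs it ran from 2.41 to 3.56 and from 0.70 to 2.52 and fell by 0.85 (adjusted p = 0.0045), a call that was lost with only these groups in the fit (adjusted p = 0.012) and without replicate 3 at 90 days (-0.65, adjusted p = 0.024), among others. The arrays of the 2 days overlapped in both grafts. Its second probe differed by -1.43 and by -1.35 and was called in both.

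Lcn2 and Hp showed no called step between 30 and 90 days. Lcn2 differed by 0.12 in BAM only (interval from -1.42 to 1.65) and by -1.38 with ASCs (interval from -2.92 to 0.15). Hp differed by -1.17 (adjusted p = 0.037) and by -1.26 (adjusted p = 0.032), with intervals that lie below 0 in both grafts. With only these groups in the fit the difference of Hp in BAM only was called (adjusted p = 0.0065). For Cp the brightest probe was not called (-0.43 and -0.54), while its other probe fell by 1.35 (adjusted p = 2.3e-06) and by 1.68 (adjusted p = 6.2e-08).

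In all 4 of 9 members, A2m, Lbp, Cd14 and Ptx3, were called lower at 90 than at 30 days in BAM only, where 44.7% of all probes were called and 9.4% were called lower. With ASCs the 4 were the same, where 28.1% of all probes were called and 10.3% were called lower. Orm1 was called higher in both grafts, but it was well above background on 0 of 8 arrays at 30 days and 1 of 8 at 90 days in BAM only and on 1 and 0 of 8 with ASCs, so that no fold is given. The median of all probes moved by 0.30 in BAM only and by 0.11 with ASCs.

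From 90 to 180 days A2m rose in BAM only. It ran from 2.26 to 3.82 (median 3.09) at 180 days against 1.13 to 2.41 (median 1.72) at 90 days, with overlap, and the difference was 1.21 (adjusted p = 0.00016). Its other probe differed by 0.60 (adjusted p = 0.082) and was not called. A2m was 1 of 9 members called by limma in this step, beside 9.39% of all probes. With ASCs none of the 9 was called by limma or by the analysis of variance, beside 4.13% of all probes, and 2 had an unadjusted p below 0.05. These were Serpina3n (0.99, adjusted p = 0.048) and Cp (0.57, adjusted p = 0.066).

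Ordered by group mean, Lcn2 was highest in BAM only at 7 days (2.32). Then followed ASCs at 30 days (-1.92) and 7 days (-2.14), BAM only at 90 (-2.25) and 30 days (-2.36), ASCs at 180 (-3.20) and 90 days (-3.30) and BAM only at 180 days (-3.37). After the first step of this order, no neighbors were further apart than the SD of either group. Hp began with BAM only at 7 days (1.35), followed by ASCs at 30 (-1.72) and 7 days (-1.87), BAM only at 30 days (-1.93) and the 4 groups of 90 and 180 days between -2.94 and -3.10. No test was made on these orders, since the genes were chosen for their level at 7 days.

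The other genes of the acute-phase response were read from lists that hold no member. These lists, and those of cell types below, were chosen with earlier results of these data known. At 7 days they were read on the same arrays that chose the members. Their calls at that day are therefore no independent support for the falls of the members. Of 75 such genes on the array, 10 were called at 7 days, and all 10 were lower with ASCs. Of all probes 7.75% were called at 7 days, and 72.9% of these were lower with ASCs, a share that was 51.1% with quantile normalization, 77.9% with normexp, 54.4% from the series matrix and 58.4% if only detected probes set the percentile. Among 25 further acute-phase proteins, 2 fell and 0 rose. Lrg1, a secreted leucine-rich glycoprotein, ran from 3.96 to 5.99 (median 4.72) in BAM only and from 2.74 to 4.56 (median 3.35) with ASCs, and fell by 1.34 (SE 0.26, adjusted p = 0.00015). It was saturated on 1 array of BAM only at 7 days. Sod2, the mitochondrial superoxide dismutase, fell by 0.66 (adjusted p = 0.0063) and was not called under normexp, quantile or detected-probe scaling.

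Of 28 cytokines and transducers, 6 fell and 0 rose at 7 days. The median over the list was -0.51, beside -0.17 for all probes, and 25 of the 28 had a lower mean with ASCs. Il6, the main inducer of the response, ran from -5.48 to -1.54 (median -4.78) in BAM only and from -7.49 to -4.59 (median -6.56) with ASCs. It was well above background on 8 arrays of BAM only and on 2 of 8 with ASCs, so that its lower level was measured on 2 arrays. The fitted difference was -2.20 (SE 0.50, adjusted p = 0.001), and it was -1.03 with normexp and -1.49 with quantile scaling. Il11, another ligand of Il6st, ran from -2.76 to -1.14 and from -3.47 to -2.90, without overlap, and fell by 1.25 (SE 0.16, adjusted p = 2.0e-08).

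Socs3, the feedback inhibitor induced by Stat3, ran from -1.97 to 0.53 and from -2.75 to -1.05 and fell by 1.24 (adjusted p = 0.00066). Il1rap, the accessory chain of the interleukin-1 receptor, fell by 1.33 (adjusted p = 0.0018). It was well above background on 8 arrays of BAM only and on 3 of 8 with ASCs, so that its lower level was measured on 3 arrays. Il22 fell by 2.06 (adjusted p = 0.0013) and Osm by 0.89 (adjusted p = 0.0048), both named after their values were seen. Il22 was well above background on 5 arrays of BAM only and 1 with ASCs, and its difference was -0.98 with normexp and -1.29 with quantile scaling. Il1b ran from 2.47 to 5.19 in BAM only and from 2.05 to 3.74 with ASCs and was not called (-1.13, adjusted p = 0.15). Stat3 itself differed by -0.47 (adjusted p = 0.0031), below the fold limit.

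Il11, Socs3, Lrg1, Tfrc and Tlr2 were called under normexp and quantile scaling, as were Il6 and Il22 at the smaller differences given above, and all 7 in each of the 16 fits that left out an array of these groups. Il6 and Il22 were not called from the series matrix (-1.79 and -1.30), and Il1rap was not called there, with normexp (-0.62) or with quantile scaling (-0.59). Osm was called in 9 and Sod2 in 10 of the 16 fits. With only the 16 arrays of 7 days in the fit, 4 of the 10 genes were called, Lrg1, Il11, Tfrc and Tlr2, and the other 6 were not.

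**Figure D4:**
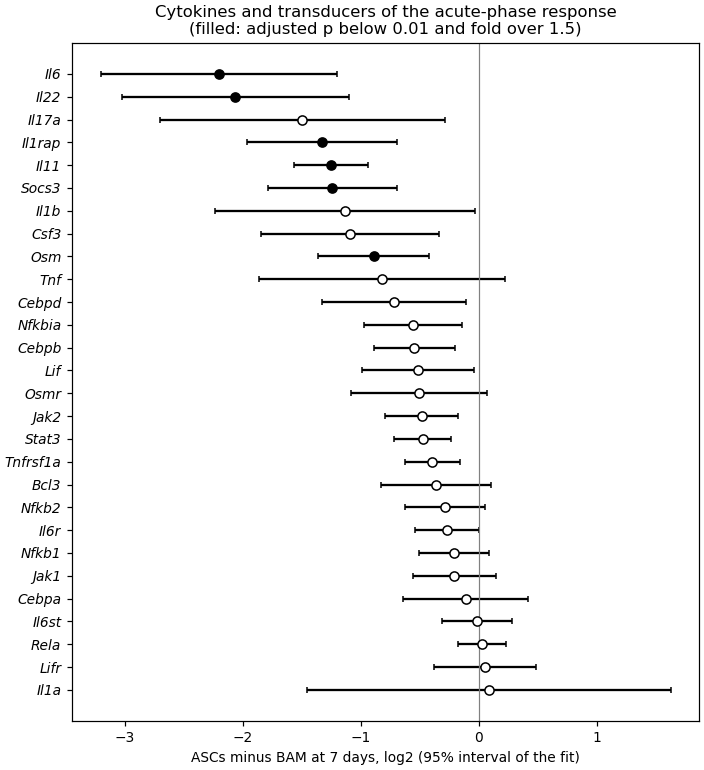
ASC-seeded grafts minus BAM only at 7 days (x axis, difference of log2 signals with the 95% interval of the fit) for 28 cytokines and transducers of the acute-phase response, filled where called. Il11 has the narrowest interval of the 6 called genes, and 25 of the 28 points lie below 0. Il6, Il1rap and Il22 were well above background on 2, 3 and 1 of 8 arrays with ASCs.

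Of 22 receptors and partners of the members, 2 fell and 0 rose at 7 days, where 7.75% of all probes were called. Tfrc, the transferrin receptor that takes up iron, fell by 1.08 (adjusted p = 0.0019), and Tlr2, a receptor for bacterial lipoproteins, by 1.03 (adjusted p = 0.0015). The Lcn2 receptor Slc22a17 ran from 0.64 to 1.20 in BAM only and from 0.86 to 1.23 with ASCs and differed by 0.01 (adjusted p = 0.97). Cd163, the macrophage receptor for the complex of haptoglobin and hemoglobin, ran from -0.94 to 3.12 and from -0.75 to 0.27 (-0.51, adjusted p = 0.31). Tlr4, which signals with Cd14, ran from -2.04 to -1.22 and from -1.88 to -1.31 (-0.03, adjusted p = 0.93).

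At the later days few genes of these lists were called between grafts. At 30 days 0 of the 75 were called by limma, and 18 had an unadjusted p below 0.05. At 90 days Stat3 was lower with ASCs, from 1.92 to 2.37 in BAM only and from 0.86 to 1.70 with ASCs, without overlap, and fell by 0.67 (adjusted p = 1.5e-05). Crp, Osmr and Tnfaip6, also called lower at 90 days and named after their values were seen, were well above background on 1, 1 and 2 arrays of BAM only and on 0 arrays with ASCs. Fth1, called higher, was saturated on all arrays of both groups, so that no fold is given. At 180 days Il11 was higher with ASCs, from -2.21 to -1.84 against -3.00 to -2.51, without overlap, by 0.70 (adjusted p = 0.0019). Stat3 differed by 0.46 at that day (adjusted p = 0.0096), below the fold limit. Of all probes called between grafts, 69.8% were lower with ASCs at 90 days and 1.90% at 180 days. With quantile normalization these shares were 50.0% and 30.0%. The share of all probes without overlap at these days is not given, so that the lack of overlap is a description only.

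Markers of cell types that make these proteins moved at 7 days as well. Of all probes 7.75% were called at that day. Of 11 neutrophil markers 2 were called lower with ASCs and 0 higher, with a median difference of -1.16 beside -0.17 for all probes. Csf3r, the receptor for granulocyte colony-stimulating factor, ran from -1.52 to 0.95 and from -3.13 to -1.17 and fell by 1.82 (adjusted p = 0.0002), and Camp fell by 0.85 (adjusted p = 0.0097), which was called in 5 of the 16 fits that left out an array. Camp was not called under quantile or detected-probe scaling, from the series matrix or by the analysis of variance. S100a8 ran from 2.42 to 5.38 (median 4.08) in BAM only and from 1.66 to 3.62 (median 2.16) with ASCs (-1.44, adjusted p = 0.23), and S100a9 from 2.92 to 5.76 and from 1.94 to 3.90 (-1.43, adjusted p = 0.22). Not all markers of the list were lower. Without replicate 7 of BAM only, Ltf differed by 0.84 and Ngp by 0.19, neither called and both named after their values were seen. The mean level of the 11 markers ran from -1.67 to 0.35 in BAM only and from -2.15 to -0.89 with ASCs. The part of neutrophils in the fall of Lcn2 and Hp was not tested.

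Urothelium markers went the other way. Of 9, 7 were called higher with ASCs at 7 days, and their mean level ran from -2.74 to 2.55 in BAM only and from 1.32 to 3.12 with ASCs. Upk2, a protein of the urothelial plaque, ran from -6.45 to 1.12 and from -1.42 to 2.08 (2.87, adjusted p = 0.00022), Upk1a from -2.35 to 4.13 and from 1.83 to 4.76 (2.36, adjusted p = 8.9e-05) and Upk3a from -1.94 to 5.44 and from 3.90 to 5.71 (2.28, adjusted p = 0.00031). Without replicate 7 of BAM only Upk2 differed by 2.24 and Upk3a by 1.58, and Krt7 and Krt19, named after their values were seen, were not called. Upk3a was saturated on 3 arrays with ASCs and on 0 of BAM only at 7 days. None of the 9 was called with only the 16 arrays of 7 days in the fit. The part of the urothelium in the levels of the members was not tested.

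Liver cell markers were near background. Alb, the main product of hepatocytes, was well above background on 1 of 8 arrays in each graft at 7 days, and the mean level of 13 hepatocyte markers ran from -5.78 to -3.13 in BAM only and from -5.76 to -5.20 with ASCs. Of the 13, Apoh, named after its values were seen, was called lower (well above background on 5 and 0 arrays). Of 11 macrophage markers 0 were called by limma and 3 had an unadjusted p below 0.05. Of 9 adipocyte markers 1 was called, Pparg, higher by 0.93 (adjusted p = 0.0087) but called in 4 of those 16 fits, while Adipoq ran from -3.13 to 1.38 and from -3.95 to 0.92 (-0.57, adjusted p = 0.75). Of 7 endothelial markers 2 were lower, Vwf (-1.0, adjusted p = 1.1e-05) and Kdr (-0.68, adjusted p = 0.003). Kdr was not called under quantile or detected-probe scaling (-0.57 in both) or without replicate 7 of BAM only. No smooth muscle, fibroblast or red cell marker was called at 7 days, with 3, 1 and 0 at an unadjusted p below 0.05. The wall markers were present, since urothelium, smooth muscle and fibroblast lists had no gene below background on every array of any group.

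**Figure D5:**
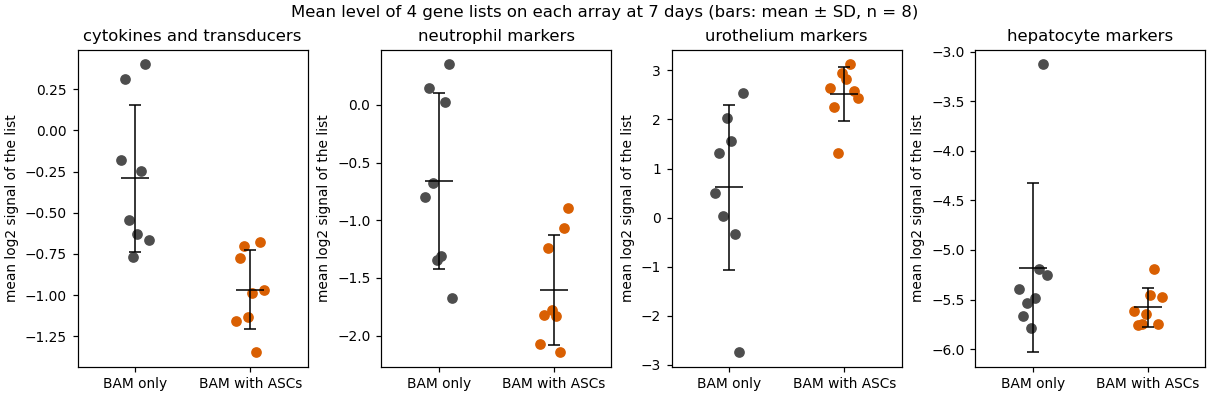
Mean log2 signal of 4 gene lists on each array at 7 days (y axis, different range in each panel), for BAM only and BAM with ASCs, with bars for the mean ± SD of 8 arrays. The cytokine and neutrophil lists lie lower with ASCs and the urothelium list higher, with overlap in all 4 lists, and the hepatocyte list lies below -5 on all arrays but 1.

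The members did not move as a block within groups. Over the deviations of the 64 arrays from their group means, the 36 pairs of members had a median Pearson's r of 0.183, from -0.173 to 0.718 for Lcn2 and Hp, with 4 pairs over 0.5. Among 5227 genes well above background on all arrays, those whose deviations were most like Lcn2 were B2m (r = 0.626), the light chain of class I molecules, Slc11a2 (0.6105), a carrier of iron, Atf6 (0.599), Ssr3 (0.586) and Mcm7 (0.585). Those most like Hp were Mcm7 (0.726), Ddx39b (0.661), Pxk (0.641), Polr2h (0.633) and Mrpl46 (0.595). The points share slides, arrays and their scaling, and the values are a description over 64 arrays. B2m was itself lower with ASCs at 7 days, by 0.76 (adjusted p = 0.0052), and was not called under normexp, quantile or detected-probe scaling. It was called in 9 of the 16 fits that left out an array. B2m was saturated on 3 arrays of BAM only and 1 with ASCs at 7 days and on 7 of BAM only at 90 days. Its r and its difference therefore include saturated arrays.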

How the data were processed

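RNA of 64 reconstructed bladder walls, 8 rats in each of 8 groups, was labelled with Cy3 and hybridised to SurePrint G3 rat arrays, 1 rat per array. Per the file headers, the authors read the spots with Agilent Feature Extraction 12.0.1.1, and the deposited processed signal is an intensity that is background-subtracted and detrended within each array but not scaled between arrays. Here control spots and spots flagged as outliers were left out, log2 values were computed from the deposited intensity, the 75th percentile of each array was subtracted and spots of 1 probe were averaged. This left 30367 gene probes, of which 18750 carried 1 of 15709 gene names. The deposited files flag spots well above background, and a probe counted as such if a share of 0.5 or more of its spots had the flag. The series matrix holds intensity values that the authors processed, and was an alternative only. Against the scanner values, 3 of its columns have another scale than the other 61, which the percentile removes. The number of arrays limits the precision.

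Groups came from the sample titles. The 64 arrays entered 1 fit of the 8 group means (limma 3.58.1, R 4.3.3), p-values were adjusted by Benjamini-Hochberg over all gene probes, and calls needed a fold change over 1.5 with an adjusted p under 0.01. No per-sample column was left without a sample. The thresholds follow the methods of the study, whose 2-way analysis of variance was run as an alternative. Tables were made with Python 3.11.15. The fit was tested on simulated data. The other alternatives were normexp on the median signal with an offset of 50, quantile normalization, the percentile over detected probes, a filter on dim probes, outlier spots kept, only the compared groups in the fit, the replicate number as a block, an adjusted p below 0.05, a fold over 2, the mean of all probes of a gene, and leaving out each array.

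The members and gene lists were chosen with earlier results of these data known. Each member was read from its brightest probe. Of each list, up to 3 genes with the largest called change that were well above background on all arrays of 1 group were named, besides S100a8, S100a9, Alb, Adipoq, Il6, Il1b, Stat3, Socs3, Slc22a17, Cd163 and Tlr4. Genes named outside this rule are marked in the text. Promoter sequences came from RefSeq, build GRCr8. The labels call each array a biological replicate.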

Additional observations from a re-analysis of the deposited data

Results flagged for a closer look

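In 12 of 72 combinations of a member and a group, 1 array stood apart from the other 7 by a gap that is large for the range of the group (Dixon's criterion, which chance meets in about 1 of 20 groups). Replicate 3 with ASCs at 90 days was the lowest array for Lcn2 (-5.79, nearest -3.39), Hp (-5.86, nearest -3.10), Cp (-0.83, nearest 0.67) and A2m (0.70, nearest 1.99). For Lcn2, replicate 7 of BAM only at 30 days was high (1.11, nearest -1.90), as was replicate 8 of BAM only at 90 days (0.16, nearest -1.85), and replicate 6 with ASCs at 180 days was low (-5.27, nearest -3.60). Cp was low in replicate 2 of BAM only at 7 days (0.55, nearest 1.36) and in replicate 3 of BAM only at 180 days (0.10, nearest 0.80). Orm1 was high in replicate 1 with ASCs at 30 days (-4.14, nearest -6.79), Serpina3n in replicate 4 with ASCs at 30 days (2.29, nearest 1.13) and Ptx3 in replicate 1 of BAM only at 30 days (0.61, nearest -1.77). The low values of Lcn2 and Hp were not well above background. The cause of these values was not tested.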

How the results depend on the processing

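Counts of called members moved by over 1.5 times, against the values in the report, in the following settings. With an adjusted p below 0.05, 1 member was called between grafts at 90 days, 1 with ASCs from 90 to 180 days and 1 in the change of the graft difference from 90 to 180 days, in place of 0. From 30 to 90 days, 3 members were called in BAM only with normexp, and with ASCs 3 with a fold over 2 and 2 with only the compared groups in the fit, in place of 5. With only the compared groups in the fit, 5 list genes were called at 7 days in place of 10, of which 4 were among the 10 and 1, Saa4, was not. The cause was not tested. Leaving out 1 array gave 3 to 6 members with ASCs from 30 to 90 days (3 without replicate 7 at 30 days or replicate 3 at 90 days), 5 to 5 in BAM only, and 8 to 12 list genes at 7 days. Leaving out 1 array also turned the sign of differences that were not called: Lcn2 between grafts ran from -0.04 to 1.01 at 30 days and from -0.17 to 0.47 at 180 days, Hp from -0.10 to 0.54 at 90 days and from -0.40 to 0.17 at 180 days, and Lcn2 in BAM only from 30 to 90 days from -0.23 to 0.61. For Hp at 180 days, only the fits that turned the sign gave 0.13, 0.00, 0.04, 0.01, 0.09, 0.17, 0.13 and 0.05, and the lowest of the other fits gave -0.40. The difference of Lcn2 at 7 days ran from -4.96 to -4.07 and that of Hp from -3.56 to -2.96. The replicate number is the position on the slide, and arrays of the same number did not deviate together (r from -0.2757 to 0.3283 over the 4 days). With the replicate number as a block the counts of called members were again 5 in both grafts from 30 to 90 days and 1 in BAM only from 90 to 180 days, and 10 list genes were called at 7 days. Fewer spots were well above background at 90 and 180 days, which limits Orm1, Ptx3 and Hp most.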
